A study of Mus musculus with 8 samples.

Results

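Keratins are the intermediate filament proteins of epithelia, and 10 of their genes were followed in mouse embryonic stem cells: Krt7, Krt8, Krt10, Krt14, Krt15, Krt17, Krt18, Krt19, Krt20 and Krt42. They are the rows carrying these names, 10 of 19429 rows and 10 of the 32 rows named for a keratin. The genes were chosen by name, with the authors' fold changes and p-values between the genotypes known. The values of that comparison are not used here, and the levels are therefore given as a description with no test. RNA-seq was performed on the mouse embryonic stem cell line LF2, grown in serum medium with LIF, a cytokine that keeps such cells undifferentiated. In every line both alleles of Tet1, which encodes an enzyme that oxidises methylated cytosine, had been edited with CRISPR/Cas9 and carried a C-terminal FLAG tag. The WT group (lines 2 and 5) had otherwise wild-type TET1, whereas the D2018A group (lines 7 and 8) carried an aspartate-to-alanine change near the C-terminus of TET1. Each line was propagated from a single cell and sequenced as 2 technical replicates, giving 4 libraries per genotype, and the WT lines also carried a deletion distal to the cut site that the D2018A lines did not. A difference between lines can therefore be a difference between clones.

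The level of each gene is the authors' mean of size-factor-normalised reads over all libraries of their fit. It is 1 value per gene that joins both genotypes, so no value per sample, no standard deviation and no difference between WT and D2018A is given for any keratin. The smallest means in the table fall on 12 steps, each the value of 1 read in 1 library, with size factors from 0.726 to 1.47, so that the mean covers 4 libraries more than the 8 samples described. Because long genes yield more reads, levels of different genes are compared per kilobase of annotated exon. The 95% intervals given with them are Poisson intervals. For means under 0.6 they rest on the whole reads behind the mean. For the other genes they rest on the mean multiplied by 12 and rounded, which only approximates the reads. The intervals cover counting error alone and not the spread between libraries, and reads without molecular identifiers are not independent molecules. The 7 embryonic stem cell markers fixed for this work all had high means, from 977 for Zfp42 to 23079 for Esrrb.

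Keratin filaments are built from pairs of 1 acidic type I and 1 basic type II chain, and different epithelia use different pairs. Simple epithelia use the type II keratins Krt8 and Krt7 with the type I keratins Krt18, Krt19 and Krt20, and Krt8 and Krt18 are among the first keratins of the embryo. In stratified epidermis Krt14 and Krt15 belong to basal cells and Krt10 to the differentiating layers above them, whereas Krt17 is known from hair follicles and other appendages and from wounded skin. Krt42 is a close relative of Krt17 known from the nail. Most type I genes lie in a cluster on chromosome 11 and the type II genes lie on chromosome 15, where Krt18 is the exception as a type I gene beside its partner Krt8.

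Krt42 and Krt17 were the most abundant keratins by a wide margin. Krt42 reached 523.6 mean normalised reads per kilobase and Krt17 reached 206, against 36.7 for Krt19, 26.8 for Krt18 and 12.5 for Krt8. Krt7 followed at 2.66, and Krt20, Krt10, Krt14 and Krt15 were close to the level of single reads. Of the 10 genes 6 had a mean of at least 10, where 66.3% of all rows and 73.3% of protein-coding rows did.

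**Figure D1:**
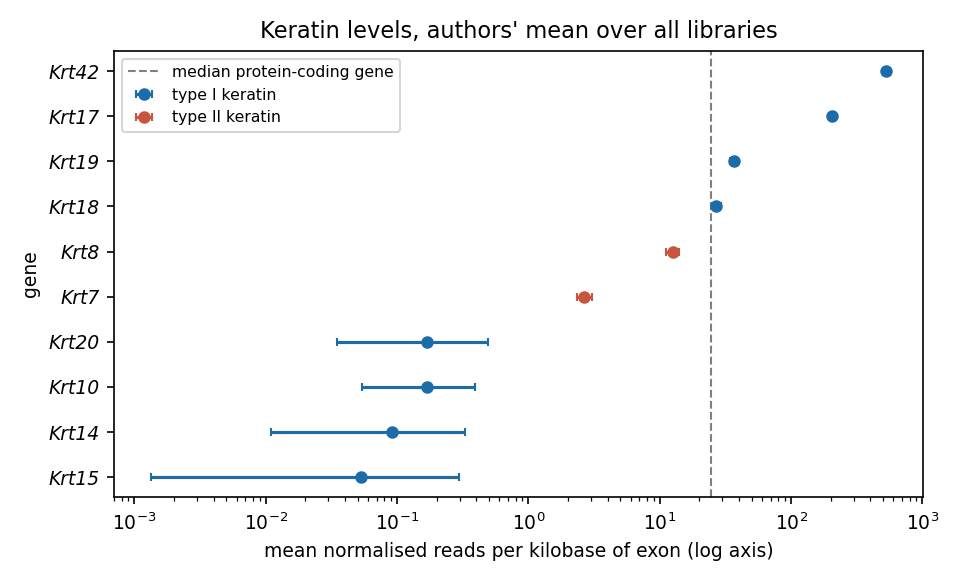
The plot gives the authors' mean normalised reads per kilobase of exon (x axis, log scale) for each of the 10 keratin genes (y axis), blue for type I and red for type II, with 95% Poisson counting intervals as bars and the median protein-coding gene, 24.5, as a dashed line. Krt42 and Krt17 stand far to the right of the line, Krt19 and Krt18 lie near it, and the intervals of the lowest 4 genes overlap.

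Since type I keratins are alike in sequence and reads were 50 bases long, it was first asked how far reads could be placed on 1 gene. Every 50-base window of each keratin's annotated transcripts was looked for in the annotated transcripts of all other genes. Krt42 shared 4 of its 1713 windows, or 0.234%, all of them with Krt17, and Krt17 shared 60 of its 1502 windows, or 3.99%. Of the windows of Krt17, 55 were shared with Krt14, 6 with Krt16, 4 with Krt42 and 1 with Krt15. The longest run of coding sequence that joins Krt17 and Krt42 is shown because a read falling wholly inside it cannot be assigned to either gene:
Krt17 and Krt42: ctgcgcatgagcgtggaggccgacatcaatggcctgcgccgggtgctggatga
It measured 53 bases and covers positions 535 to 587 of the Krt17 coding sequence. STAR leaves a read that fits several places equally well out of its gene counts, so such reads are missing from a gene rather than added to its neighbour. With only windows found in no other gene counted as length, Krt42 stood at 540.5 and Krt17 at 222 per 1000 windows. These values are near those per kilobase of exon but above their counting intervals. A transcript holds fewer 50-base windows than bases, which raises a level per 1000 windows even where no sequence is shared. Krt42 had 1713 windows for 1764 bases of exon, and Krt19, which shared no window, rose from 36.7 to 37.7. Most of the rise of Krt42 was therefore not due to shared sequence.

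Krt42 (ENSMUSG00000053654) spans positions 100262882 to 100269871 of chromosome 11 on the minus strand of GRCm38. Its mean was 924 normalised reads, or 523.6 per kilobase (95% counting interval 514 to 533). This placed it above 94.6% of the 16931 protein-coding rows with an exon length. By the mean not divided by length it stood above 84.6% of them. Zfp42, a zinc-finger gene widely used as a marker of the naive stem cell state, stood at 519.5 per kilobase. This lies inside the counting interval of Krt42 with the union of exons as length. With its longest annotated transcript as length Krt42 stood at 599. Pou5f1, the gene of the pluripotency factor OCT4, stood 1.71 times as high as Krt42 per kilobase of exon. Zfp42 and Pou5f1 were the lowest of the embryonic stem cell markers per kilobase. All the others stood higher, from 1527 for Sox2 to 5903 for Utf1.

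Krt17 (ENSMUSG00000035557) lies next to it, at positions 100256217 to 100261029 of the same strand, with 1852 bases between the annotated ends. Its mean was 319.7 normalised reads, or 206 per kilobase (199.7 to 213), above 85.5% of protein-coding rows. By the mean not divided by length it stood above 67.7% of them. Krt42 exceeded Krt17 2.54-fold per kilobase (2.45 to 2.64 by counting), and Krt17 exceeded the next keratin, Krt19, 5.62-fold (5.21 to 6.07). These folds depend on the length used, which the counting intervals do not cover. With the longest annotated transcript as length Krt42 stood at 599, Krt17 at 206 and Krt19 at 43.2. The levels of these neighbours did not extend evenly along the cluster. Krt16, an epidermal keratin of wounded and thickened skin that lies 7314 bases from Krt17 on its other side, had a mean of 22.2 and 14.2 reads per kilobase. Because 37.6% of the windows of Krt16 occur elsewhere, 382 of them in the pseudogene Gm11597 and 188 in Krt14, its level rose to 23.5 per 1000 windows found in no other gene. Krt14, a further 38542 bases away, had a mean of 0.159. On the opposite side of Krt42 the table's next genes were Gm14206 at 3.86 and Gm12349 at 1.43 reads per kilobase, both far below Krt42.

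**Figure D2:**
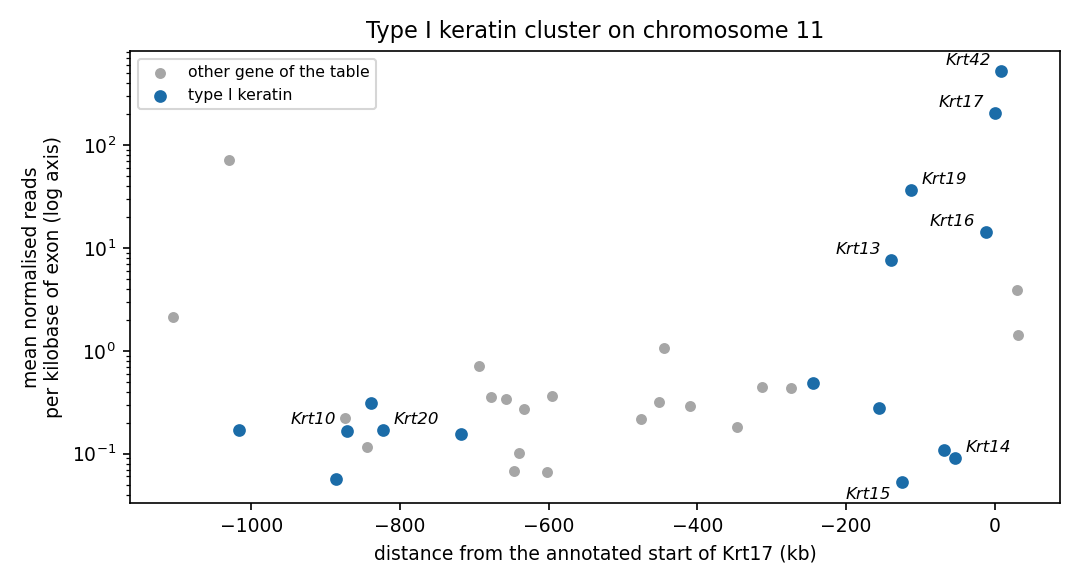
Each point is a gene of the table in or beside the type I keratin cluster, placed by the distance of its start from that of Krt17 in kilobases (x axis) and by mean normalised reads per kilobase (y axis, log scale), with keratins in blue and other genes in grey. Krt42 and Krt17 are neighbours at the right end, whereas Krt14 and Krt15, in the same stretch of the cluster, stand at 0.0907 and 0.0526.

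Over the 16 keratin rows of chromosome 11, Krt17 and Krt42 together held 92.3% of the signal per kilobase. They held 92.0% of the normalised reads (95% interval 91.6 to 92.4%, counting error only). Besides them, Krt19, Krt16 and Krt13, a keratin of the lining of the mouth and oesophagus, had means of at least 10, and the mean of Krt13 was 13.8. The other 11 keratin rows of the cluster all had means under 1, whereas 87.8% of protein-coding rows had a mean of at least 1. Summed over the family, type I keratins came to 817 and type II keratins to 19.8 reads per kilobase, a ratio of 41.4. With Krt17 and Krt42 left out the ratio was 4.42. The excess of type I over type II transcripts thus lay mostly in these genes. No type II keratin of the table had a mean of 100 or more, where 50.7% of protein-coding rows did.

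The simple-epithelium keratins Krt19, Krt18 and Krt8 summed to 76.0 reads per kilobase, and Krt17 and Krt42 to 730, which is 9.60 times as much. Krt19, the smallest type I keratin, which lacks most of the tail found in the others, lies within the chromosome 11 cluster at positions 100140810 to 100148665, 112 kb from the start of Krt17. Its mean was 68.1, or 36.7 per kilobase (34.2 to 39.3), above 56.2% of protein-coding rows. None of its windows occurred in another gene. It exceeded Krt18 1.37-fold (1.22 to 1.54).

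Krt18 and Krt8, whose proteins pair, lie on chromosome 15 at positions 102028216 to 102032026 and 101996711 to 102004342, with 23873 bases between them and on opposite strands. Krt18 had a mean of 38.5, or 26.8 per kilobase (24.4 to 29.4). Krt8 had a mean of 24.5, or 12.5 per kilobase (11.1 to 14.0), and Krt18 exceeded it 2.14-fold (1.85 to 2.49). Part of this gap moved with read placement. Of the 1909 windows of Krt8, 567 or 29.7% were found in other transcripts, 514 of them in the processed pseudogene Krt8-ps and 53 in the lincRNA Gm36026, whereas 10 windows of Krt18 were shared. Per 1000 windows found in no other gene, Krt8 rose to 18.3 and the ratio of Krt18 to Krt8 fell to 1.53. The median protein-coding gene had 24.5 reads per kilobase, so Krt18 stood close to the median and Krt8 below it.

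Krt7, the other type II keratin of simple epithelia followed here, lies at positions 101411043 to 101430313 of chromosome 15. Its mean of 18.8 was near that of Krt8, but its annotated exons add up to 7049 bases, so its level per kilobase was 2.66 (2.33 to 3.03), 4.70-fold (3.94 to 5.62) lower than Krt8. With the longest annotated transcript of 4094 bases as its length the level of Krt7 was 4.59. In proportion this is the largest move that a choice of length gave to any of the 10 genes. Krt80, another type II keratin of chromosome 15, had a mean of 10.2.

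**Figure D3:**
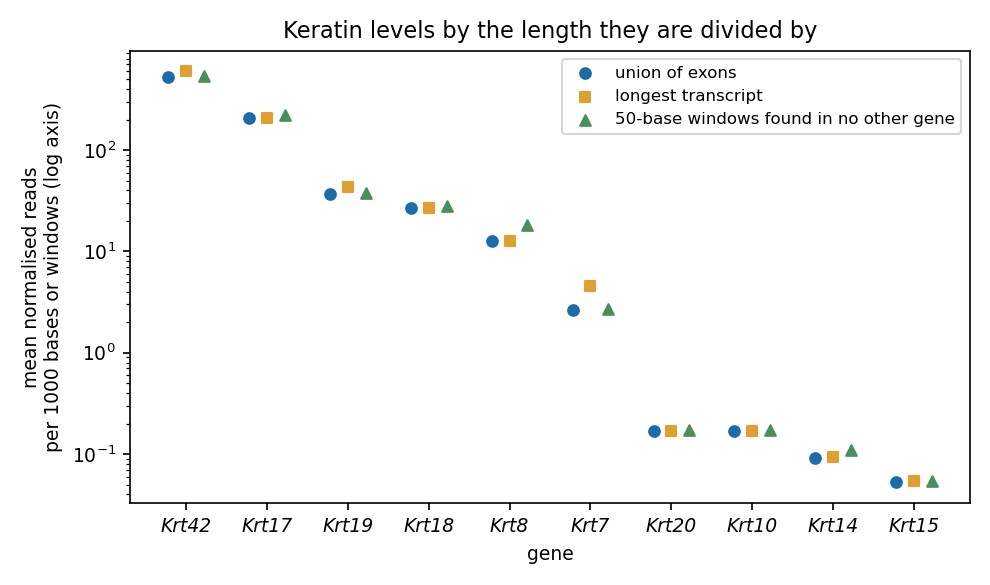
For each of the 10 keratin genes (x axis) the authors' mean normalised reads are divided by 3 lengths, the union of exons, the longest transcript and the 50-base windows found in no other gene, and shown per 1000 bases or windows (y axis, log scale). The order of the genes is the same under all 3, and the clearest shifts are those of Krt7 and Krt8.

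The remaining 4 genes had means under 1, and at such values the mean can be resolved into whole reads per library. For each of them 1 combination of reads gave the deposited value, although which library belonged to which genotype is not known and was not inferred. Krt15 had 1 read, in 1 of the 12 libraries. Krt14 had 2 reads, both in 1 library, and Krt20 had 3 reads, all in 1 other library. Krt10 had 5 reads, spread over 3 libraries with at most 2 in each. Every one of these genes was therefore without a read in at least 9 libraries.

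Per kilobase these amounts came to 0.169 for Krt20 (0.0349 to 0.494), 0.167 for Krt10 (0.0544 to 0.391), 0.0907 for Krt14 (0.0110 to 0.328) and 0.0526 for Krt15 (0.00133 to 0.293). The intervals overlap, so the order of these 4 genes is not resolved by counting, whereas each of the 6 genes above them differed from the next by more than counting error. Krt7 stood 15.7-fold above Krt20, with an interval of 5.32 to 76.9. Reads from 1 library alone were found elsewhere in the family too. Of the 19 keratin rows with means that could be resolved, 15 had 2 reads or more, and in 8 of those 15 all reads came from 1 library. How often this occurs among other genes of like mean was not computed, so it cannot be read as a trait of keratins. From 5 reads or fewer over 12 libraries, no difference in level among Krt10, Krt14, Krt15 and Krt20 was detectable.

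**Figure D4:**
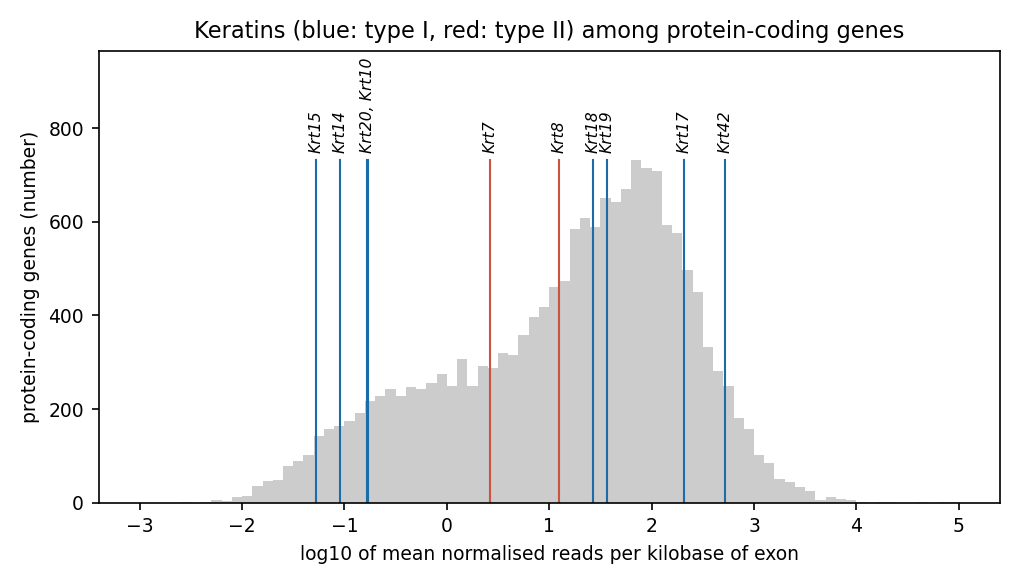
The grey bars count protein-coding genes (y axis) by the log10 of mean normalised reads per kilobase of exon (x axis), and each vertical line is 1 of the 10 keratin genes, blue for type I and red for type II. Krt42 lies above 94.6% of these genes and Krt17 above 85.5%, whereas Krt20, Krt10, Krt14 and Krt15 lie in the lowest 7.86%.

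The epidermal partners of Krt14 and Krt10 were read alongside, and partners of Krt17 and Krt42 were not sought. Krt5, the type II partner of Krt14 in basal epidermis, had 4 reads in 3 libraries, and Krt1, the partner of Krt10, had 4 reads in 1 library. Of the 6 epidermis markers 5 had a row, and 3 of them, Krt5, Krt14 and Lor, which encodes a protein of the cornified layer, had means under 1. Among protein-coding rows 87.8% had a mean of at least 1. Trp63, the gene of the basal epithelial regulator p63, had a mean of 1.09. Perp, a desmosomal gene that is also a p53 target, had a mean of 570. It was the only epidermis marker of at least 10, where 73.3% of protein-coding rows were.

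Krt8, Krt18, Krt19 and Krt7 are also keratins of the trophectoderm and of primitive endoderm, and markers of these were at varied levels. Of 6 trophectoderm markers 4 had means of at least 10, namely Tfap2c (1694), Eomes (199), Gata3 (13.9) and Hand1 (13.6), while Cdx2 (1.49) and Elf5 (1.13) were near 1. All 5 primitive endoderm markers had means from 10.2 for Sox17 to 331 for Sox7. Of protein-coding rows as a whole, 73.3% had a mean of at least 10. Of 7 fibroblast markers 4 had a row, with means of 194 for Thy1, 115 for Col1a1, 0.689 for Col1a2 and 0.0930 for Col3a1. In bulk RNA a few cells with much keratin RNA and many cells with little cannot be told apart, and the part of other cell types in the keratin levels was not tested.

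Among the other intermediate filament genes, 11 of 15 had means of at least 10, a share like the 73.3% of protein-coding rows. Vim, which encodes vimentin of mesenchymal and many cultured cells, was the highest at 2021 reads per kilobase, 3.86 times the level of Krt42. It was followed by the lamin gene Lmnb1 at 611 and by Ina, a neuronal filament gene, at 314, so Krt42 ranked between the lamin and Ina. Bfsp2, a filament gene of the eye lens, was the only one of the list under 1. Of 12 genes for proteins that anchor keratins to junctions or link them to other filaments, 10 had means of at least 10, against the same 73.3%. The highest per kilobase were Jup (858), the plakoglobin of desmosomes and adherens junctions, Pkp4 (378), a plakophilin relative, and Plec (153), a linker of filaments to other structures. Of 11 epithelial transcription factors 8 had means of at least 10, again close to 73.3%, led by Klf5 (3473), Klf4 (2146) and Grhl3 (483) per kilobase. Klf4 and Klf5 are also factors of embryonic stem cells, and no gene of the partner list or of the transcription factor list had a mean under 1.

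Promoter sequences of RefSeq (GRCm38.p6) were matched for 7 of the 10 genes, namely Krt7, Krt8, Krt10, Krt14, Krt18, Krt20 and Krt42. Those of Krt42 and Krt10 are shown as the highest and one of the lowest genes of the same cluster, and those of Krt18 and Krt7 as simple-epithelium genes of chromosome 15. Each runs from 250 bases before to 30 bases after the RefSeq start on the gene's own strand, and capitals mark TATAAA or GGGCGG on either strand. They lie at chr11:100269922-100270201 (minus), chr11:99389335-99389614 (minus), chr15:102027966-102028245 (plus) and chr15:101412153-101412432 (plus):
Krt42: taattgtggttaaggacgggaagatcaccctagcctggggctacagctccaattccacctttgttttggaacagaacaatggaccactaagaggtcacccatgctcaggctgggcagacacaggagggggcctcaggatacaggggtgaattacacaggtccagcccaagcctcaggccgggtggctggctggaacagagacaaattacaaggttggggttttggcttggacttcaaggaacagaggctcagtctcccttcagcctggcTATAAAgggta
Krt10: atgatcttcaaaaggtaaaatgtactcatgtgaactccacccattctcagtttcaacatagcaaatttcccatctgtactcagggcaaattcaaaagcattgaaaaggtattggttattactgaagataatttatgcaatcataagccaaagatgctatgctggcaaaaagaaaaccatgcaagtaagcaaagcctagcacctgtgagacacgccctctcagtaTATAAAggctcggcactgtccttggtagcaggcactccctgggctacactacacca
Krt18: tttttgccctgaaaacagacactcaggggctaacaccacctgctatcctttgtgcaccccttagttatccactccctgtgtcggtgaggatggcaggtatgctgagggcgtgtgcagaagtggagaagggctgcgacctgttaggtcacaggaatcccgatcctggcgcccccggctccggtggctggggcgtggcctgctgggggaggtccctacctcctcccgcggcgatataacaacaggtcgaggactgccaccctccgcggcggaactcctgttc
Krt7: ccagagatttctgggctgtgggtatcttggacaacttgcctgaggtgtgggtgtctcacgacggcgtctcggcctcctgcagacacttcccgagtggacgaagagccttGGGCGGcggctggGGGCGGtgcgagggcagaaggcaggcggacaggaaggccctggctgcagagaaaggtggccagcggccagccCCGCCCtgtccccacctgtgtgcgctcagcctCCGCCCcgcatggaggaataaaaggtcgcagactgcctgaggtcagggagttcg
TATAAA, the consensus of the TATA box, was found on either strand within the 300-base windows of 4 of the 7 genes, against 13.6% of all 32851 RefSeq promoters. In Krt10 it ended 21 bases before the RefSeq start and in Krt20 it ended 24 bases before it. In Krt42 it lay 20 to 25 bases after the RefSeq start, which itself lies 80 bases before the start of the gene in the table. The RefSeq starts of Krt7 and Krt14 lie 1360 and 1518 bases downstream of the starts in the table, so the windows of these genes, the one printed for Krt7 included, lie inside the genes as the table places them. In Krt8 it overlapped the start, on both strands with overlapping letters. GGGCGG, the core of the GC box, occurred in Krt7 alone, 4 times, against 35.7% of all promoters. The palindrome TGANTCA, the AP-1 site, was in none of the 7 windows, against 7.81% of all. Krt42 and Krt10 had 2 CpG dinucleotides each, Krt18 had 17 and Krt7 had 21, where the median promoter had 7. The gene with the highest level and one at 5 reads in all thus had equally CpG-poor windows, and no test of promoters against levels was made.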

How the data were processed

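Ribosomal-RNA-depleted total RNA of 8 libraries (4 WT, 4 D2018A) was sequenced by the authors with single-end 50-base reads, aligned to GRCm38.p6 and counted per gene with STAR 2.5.3a, and normalised with DESeq2 1.20.0. The strand setting of the counting is not given in the sources used here, so a gene and an antisense partner, such as Krt10 and Gm11940, cannot be told apart. The deposited table has 1 measurement column that was used, the authors' mean normalised signal over all libraries of their fit. Its further columns hold the authors' comparison of D2018A with WT (log2 fold change, standard error, statistic, p-value and adjusted p-value) and were not used. There are 0 columns of single libraries, so the planned count test between genotypes was not run. The total count per library is not given by the table.

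Means were divided by the union of annotated exons (GENCODE vM21). Krt74, a keratin row, is annotated there as a pseudogene. Of 53 annotated protein-coding keratin genes 31 had a row, and the others were not analysed here. Windows of 50 bases were compared between annotated transcripts, not with the genome, and some shared sequence is not reported here. Means shared by at least 30 genes gave the 12 single-read steps, and means under 0.6 were resolved into whole reads. This was tested on simulated data for the lower part of that range only, which includes the means of Krt10, Krt14, Krt15 and Krt20. Intervals are at 95%, Poisson for levels and binomial for ratios and shares, with no test. Above a mean of 0.6 they rest on normalised and not on whole reads. Python 3.11.15, pandas 2.3.3 and scipy 1.17.1 were used.

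The genes and lists were chosen with earlier results of these data known. Named were the 10 genes, other keratin rows with a mean of at least 10, the 2 rows on either side of Krt17 and Krt42, and in each list of filament, partner and transcription factor genes the 3 highest per kilobase and any with a mean under 1. Marker genes of other cell types were named by list. Krt1 falls outside this rule and was chosen after its value was seen. Krt74, Gm11940 and transcripts that share windows with a keratin were named for their annotation or sequence and not for their level.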

Additional observations from a re-analysis of the deposited data

Results flagged for a closer look

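The mean that gives every keratin level covers more libraries than the samples described. Its single-read steps correspond to 12 libraries, 4 more than the 8 samples. The genotype and treatment of those 4 libraries are not known here, nor whether they are further libraries of the same lines. All keratin levels therefore describe the 12 libraries together.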

How the results depend on the processing

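The order of the 10 keratins was the same with the longest annotated transcript as length and with the 50-base windows found in no other gene. The summed level of the 10 genes, 809 reads per kilobase, became 893 with the longest transcript and 849 with single windows. Part of the rise with single windows arises because a transcript holds fewer windows than bases. With single windows the share of Krt17 and Krt42 in the chromosome 11 keratin signal was 91.4% instead of 92.3%, and the ratio of type I to type II signal 33.5 instead of 41.4. At a minimum of 100 in place of 10, 2 of the 10 genes remained, where 44.6% of all rows did. The median percentile of the 10 genes was 33.1 among protein-coding rows and 38.6 among all rows. With means not divided by length the percentile of Krt42 fell from 94.6 to 84.6 and that of Krt17 from 85.5 to 67.7. Of the 20 percentiles recomputed for single genes, 8 stayed within the counting interval. TATAAA was found in 2 member promoters, in place of 4, when only the 150 bases before the start were searched, and the share of all promoters fell from 13.6% to 7.57%. Of the 20 levels recomputed for single genes under another length, 14 stayed inside the counting interval. The 6 outside it were Krt42 under both other lengths, Krt19 and Krt7 with the longest transcript, and Krt17 and Krt8 with single windows. The 4 genes with means under 1, which have wide intervals, stayed inside throughout. No paired analysis was possible because the table holds no values per library. For the same reason the alternatives for counts (other normalisations, count filters, leaving out a library) were not run, and the spread between libraries stays unknown for all 10 genes.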
